A study of Mus musculus with 12 samples.

Results

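The 8 genes described here, Myh1, Myh2, Myh3, Myh4, Myh6, Myh7, Myh7b and Myh8, encode sarcomeric myosin heavy chains. They were chosen by gene symbol, without use of their measured values, from 23923 genes in the files. RNA-seq was performed on the tibialis anterior, a limb muscle made mostly of fast-twitch fibers, from 12 mice aged 6 weeks on a mixed C57BL6/J;129S1/SvImJ background. Control mice (n = 6) were Myf6 cre/+; Smyd1 flox/+ and conditional knockout (CKO) mice (n = 6) were Myf6 cre/+; Smyd1 flox/-. According to the study's methods, both groups also carried Rosa26 YFP/+, and Cre was driven from the Myf6 locus, which is active in muscle fibers and recombines from about the time of birth. Controls therefore carried Cre and 1 floxed Smyd1 allele as well, and cells of the muscle that do not express Myf6 were not targeted. Each library came from 1 mouse, and the labels gave no sex or litter for the mice. The study's text says that its experiments after the first measurements of fiber size used male tissue, without naming the sequenced mice.

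Myosin heavy chain is the motor protein of the thick filament. Heavy chains pair, bind light chains at the neck, and pull on actin filaments when ATP is hydrolyzed. Each isoform shortens at its own speed, so the isoform a fiber makes largely sets its contractile type. In adult limb muscle of the mouse, Myh4 (type IIb) is the fastest isoform, Myh1 (type IIx) and Myh2 (type IIa) are the other fast isoforms, and Myh7 (type I, also the beta isoform of the heart) is the slow isoform. Myh3 (embryonic) and Myh8 (perinatal) are the developmental isoforms, Myh6 is the alpha isoform of the heart, and Myh7b is an ancient relative of Myh6 and Myh7 that makes little protein in most mammalian muscle. SMYD1, the methyltransferase deleted in the CKO, is known to bind myosin and to sit at the M-line of the sarcomere.

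The genes lie in 3 places in the genome (GENCODE mouse release 21, GRCm38). The developmental and fast genes stand on the plus strand of chromosome 11 in the order Myh3 (67078300 to 67102291), Myh2 (67171027 to 67197517), Myh1 (67200052 to 67224575), Myh4 (67238029 to 67260446) and Myh8 (67277124 to 67308634). Myh6 (54941921 to 54966927) and Myh7 (54970684 to 54994626) are neighbors on the minus strand of chromosome 14. Myh7b lies alone on chromosome 2 (155611212 to 155634307, plus strand). The deposited values were made on the mm9 build and carry no positions, so these coordinates were matched by symbol and are given for orientation. The antisense genes Myhas (67211256 to 67237573) and 9430073C21Rik (67195680 to 67199234) overlap Myh1 and Myh2 on the minus strand, and whether the counting used strand is not given in the sources used here, so reads from either strand of those stretches cannot be told apart.

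The fast and perinatal genes of chromosome 11 share sequence just upstream of their starts. Of 32851 RefSeq promoter windows (GRCm38.p6), each covering 250 bases before a start, 4 held the word TTCTAATTATATCC on either strand, and these were the windows of Myh1, Myh2, Myh4 and Myh8. A second word common to the 4 windows, TCAAATTAT, was present in 0.174% of all windows. The stretches that hold both words are shown here because Myh4, Myh1 and Myh2 supply nearly all of the myosin mRNA measured below. The RefSeq starts of Myh4 and Myh1 differ from the GENCODE starts given above. The Myh4 stretch lies 133 to 199 bases before its RefSeq start, and the Myh1 stretch 135 to 228 bases before its own. Capitals mark the shared words.
Myh4, chr11:67237613-67237679, plus strand: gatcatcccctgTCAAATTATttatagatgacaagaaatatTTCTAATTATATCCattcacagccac
Myh1, chr11:67199874-67199967, plus strand: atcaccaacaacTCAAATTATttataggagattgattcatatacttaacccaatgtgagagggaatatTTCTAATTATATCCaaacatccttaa
Myh2, chr11:67170842-67170927, plus strand: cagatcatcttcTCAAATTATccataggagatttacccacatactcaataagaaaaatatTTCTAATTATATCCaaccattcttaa
Myh8, chr11:67277008-67277095, plus strand: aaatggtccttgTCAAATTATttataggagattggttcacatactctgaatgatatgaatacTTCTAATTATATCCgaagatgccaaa
Myh1, Myh2 and Myh4 shared a longer run of 20 bases around the longer word, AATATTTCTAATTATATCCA, that no other window held. The words were found in these windows and were not tested for function. The letters of 4 known motifs were also searched on both strands of the same windows. The TATA box letters TATAAA were present in the windows of Myh1, Myh3, Myh4 and Myh8 and in 12.4% of all windows. The MCAT letters CATTCC, bound by TEAD factors, were present for Myh1, Myh4, Myh6 and Myh7 and in 12.6% of all windows. The E-box letters CANNTG were present for 6 of the 8 genes, Myh1 and Myh2 being the exceptions, and in 66.2% of all windows. The strict MEF2 letters CTANNNNTAG were in none of the 8 windows and in 3.20% of all windows. That search fixed C as the first base and G as the last. Looser forms of the MEF2 site, with other bases there, were not searched over all windows, so how common they are was not measured. The 4 stretches printed above each hold a looser form, with T in place of C as the first base. It starts within the shorter shared word. Its middle 4 bases are all A or T in Myh1, Myh4 and Myh8, but not in Myh2. The windows of Myh3, Myh6, Myh7 and Myh7b were not searched for looser forms, so their absence there is not shown.

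Myosin heavy chain transcripts are alike, and reads that map to several places had been discarded before the values were made. In the longest coding transcript of each gene, between 6016 and 6230 bases long, the share of 50-base windows that also occur in a transcript of another gene was 26.9% for Myh2, 26.7% for Myh1, 22.6% for Myh6, 22.2% for Myh7, 21.4% for Myh8, 18.9% for Myh4, 4.81% for Myh3 and 0% for Myh7b. Myh1 shared most with Myh2, and Myh6 and Myh7 shared only with each other. With windows of 100 bases, the largest share was 11.4%, for Myh6. Values of all members except Myh7b are therefore less certain than those of genes without close relatives, and the part of this loss in the values below was not tested.

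The deposited values are FPKM, fragment numbers divided by transcript length and by the number of mapped fragments of the library, so levels can be compared between genes as well as between mice. Read numbers are not given in these files. The relative depth of the libraries, read from the steps between the lowest values, ran up to 1.54 in controls and from 0.983 to 1.77 in CKOs relative to control 1, the lowest control. The groups also differed over all genes. The median log2 fold change of the 12695 genes tested was 0.18, and it was 0.01 after each sample was scaled by its median ratio to the other samples. Fold changes of the members are therefore given below on both scales. Muscle fiber identity was evident in every library, with summed FPKM of 7 muscle fiber markers between 8790 and 14124. Ttn, a marker in that list, was listed at 0 in 8 of the 12 mice. Smyd1 itself did not pass the threshold, and its values overlapped between the groups. Its FPKM was 32.9, 34.9 and 47.1 (lowest, median and highest) in controls and 27.8, 33.5 and 39.9 in CKOs (log2 fold change -0.13, limma adjusted P = 0.545), and after scaling its log2 fold change was -0.32 (SE 0.08, limma adjusted P = 0.0801). A gene-level FPKM does not measure the deleted part on its own, so the group names, and every direction given here, rest on the labels.

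In control muscle, the order of mean FPKM was Myh4, Myh1, Myh2, Myh8, Myh3, Myh7, Myh6 and Myh7b. Down to Myh3, each gene was above the next one in all 6 controls, with no overlap of ranges. The range of Myh7 overlapped those of Myh3, Myh6 and Myh7b, so its place was not resolved. Myh3 lay wholly above Myh6 and Myh7b, and Myh6 was above Myh7b in all 6 controls although their ranges overlapped. In the CKO, Myh4, Myh1 and Myh2 again came first without overlap. The other means followed in the order Myh7, Myh3, Myh8, Myh6 and Myh7b. The ranges of Myh7, Myh3 and Myh8 overlapped, and so did those of Myh6 and Myh7b. The range of Myh7 also overlapped those of Myh6 and Myh7b, and the range of Myh3 overlapped that of Myh6. Myh7 was above Myh3 in 2 of the 6 CKOs, so its place was not resolved in the CKO either.

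**Figure D1:**
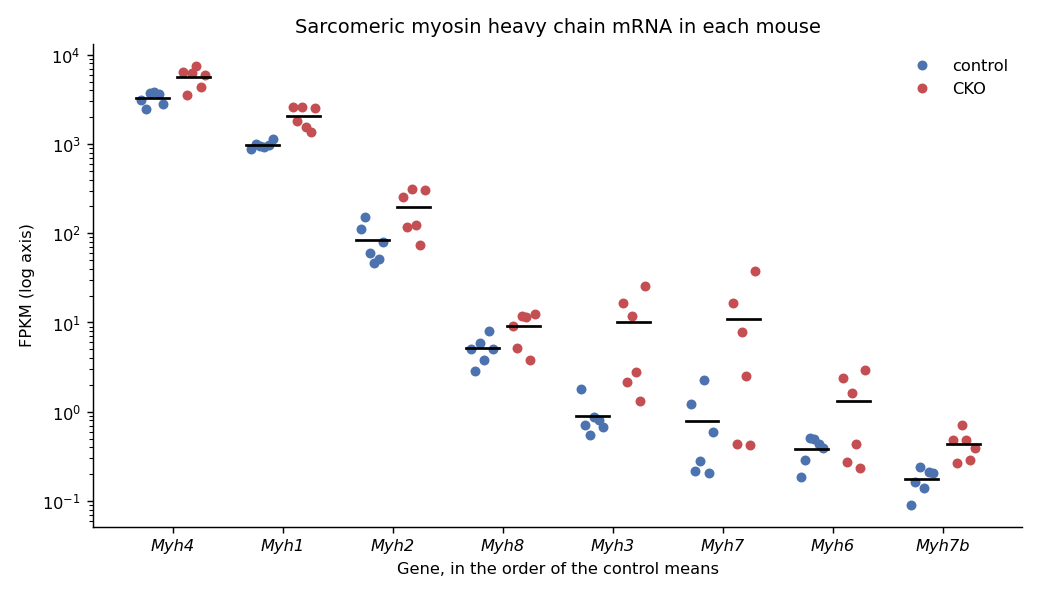
FPKM of the 8 sarcomeric myosin heavy chain genes in each mouse, on a log axis, with control mice in blue, CKO mice in red and a black line at each group's mean (n = 6). Every CKO mean is above the control mean, the groups do not overlap for Myh1 and Myh7b, and the CKO values of Myh3 and Myh7 are spread most widely.

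All 8 genes passed the filter on low values, with at least 0.1 FPKM in 11 or 12 of the mice, and all 8 had a higher mean in the CKO. Of the 8, Myh1, Myh3 and Myh7b (3 genes) were higher at a limma adjusted P below 0.05, against 2.02% of all genes tested, and 0 were lower, against 0.268%. At an unadjusted P below 0.05, 7 of the 8 were higher, against 18.1% of all genes, and 0 were lower, against 1.76%. After median-ratio scaling, 1 of the 8, Myh1, remained at the adjusted threshold, against 0.764% of all genes. The CKO values lay wholly above the control values for 2 of the 8, Myh1 and Myh7b, against 2.23% of all genes. The median log2 fold change of the 8 was 1.06 as deposited and 0.88 after scaling. In whole muscle, a larger share of fibers that make an isoform and more of its mRNA per fiber cannot be told apart.

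Among the fast isoforms, Myh1 passed the threshold. Controls gave 873, 957 and 1139 FPKM (lowest, median and highest), and CKOs gave 1378, 2190.5 and 2631 FPKM. All 6 CKOs were above all 6 controls, with CKO 1, 3 and 6 at 2565 FPKM or more and CKO 2, 4 and 5 at 1816 FPKM or less. Myh1 rose 2.07-fold on the fitted scale (log2 fold change 1.05, SE 0.18, limma adjusted P = 0.00733) and its log2 fold change was 0.86 after scaling (SE 0.18, limma adjusted P = 0.0286). It passed the adjusted threshold in every one of the 21 alternative fits, with adjusted P between 0.000983 and 0.0468. After scaling, 5 of the 6 CKOs remained above all controls.

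Myh4, the most abundant transcript of the family in every mouse, had a higher mean in the CKO but did not pass. Controls gave 2482, 3380 and 3837 FPKM and CKOs gave 3586, 6128 and 7498 FPKM. All CKOs but 1 exceeded all controls, and that one, CKO 2, lay within the control range. Its log2 fold change was 0.77 (SE 0.20, limma adjusted P = 0.0599), and 0.58 after scaling (limma adjusted P = 0.179). The call depended on single libraries, since the adjusted P was 0.0216 without CKO 2, 0.0399 without CKO 5 and 0.0393 without control 1.

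Myh2 overlapped between the groups. Controls gave 45.8, 69.8 and 151 FPKM and CKOs gave 73.9, 189 and 316 FPKM. CKO 1, 3 and 6 were above all controls, between 255 and 316 FPKM, while the other 3 CKOs lay within the control range. With a log2 fold change of 1.18 (SE 0.37), it did not pass as deposited (limma adjusted P = 0.107) or at 0.996 after scaling (limma adjusted P = 0.226). Without CKO 5, the adjusted P was 0.0395.

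Myh4, Myh1 and Myh2 supplied nearly all of the myosin mRNA pool. The summed FPKM of the 8 genes was 4339 ± 479 in controls and 7993 ± 1795 in CKOs (SD, n = 6), and all 6 CKOs were above all controls. The sum ranged from 3633 to 4817 in controls, while CKO 2 and CKO 5 gave 5527 and 5846 and the other 4 CKOs lay between 8887 and 9285. The CKO mean was 1.84 times the control mean, and 1.61 times after scaling. The 8 genes supplied 3.45% ± 0.46 of the summed FPKM of all genes in controls and 6.30% ± 1.55 in CKOs. Myh4 accounted for 65.9% of the difference between the group means, Myh1 for 30.3% and Myh2 for 3.16%. For comparison, Acta1 (skeletal actin) gave 4604 ± 370 FPKM in controls and 3669 ± 434 FPKM in CKOs (SD, n = 6). Ckm (muscle creatine kinase) gave 4292 ± 1029 and 3745 ± 1043 FPKM. Of the other muscle fiber markers, Mb had a CKO mean 0.885 times the control mean. Des, Neb and Pygm went the other way, at 1.42, 1.07 and 1.03 times, and 5 CKOs exceeded all controls for Des.

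No difference in the share of an abundant isoform was larger than the spread between mice. Myh4, Myh1 and Myh2 together made up 99.8% of the summed FPKM in controls and 99.6% in CKOs. The share of each gene was compared by a two-sided exact permutation test over all assignments of the mice, whose smallest possible P is 0.00216, for 8 shares that sum to 100% and so are not independent. The Myh4 share was 75.0% ± 4.9 in controls and 70.9% ± 6.3 in CKOs (SD, n = 6, exact permutation P = 0.232). The Myh1 share was 22.8% ± 4.0 and 26.4% ± 5.6 (exact permutation P = 0.219). CKO 4 stood apart from its group, with the highest Myh4 share of all mice, 81.8%, and the lowest Myh1 share, 16.7%. Without CKO 4, the difference, CKO minus control, was -6.31 percentage points for Myh4 (exact permutation P = 0.0390) and 5.51 points for Myh1 (exact permutation P = 0.0303). Each of the 12 mice was left out in turn, and for both shares CKO 4 was the only 1 whose removal gave a P below 0.05. The Myh2 share was 2.03% ± 1.23 in controls and 2.39% ± 0.98 in CKOs (exact permutation P = 0.567). The FPKM of Myh4 was 3.40 ± 0.74 times that of Myh1 in controls and 2.87 ± 1.07 times in CKOs (SD, n = 6), with 4 of the CKOs below all controls and CKO 4 above them all.

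**Figure D2:**
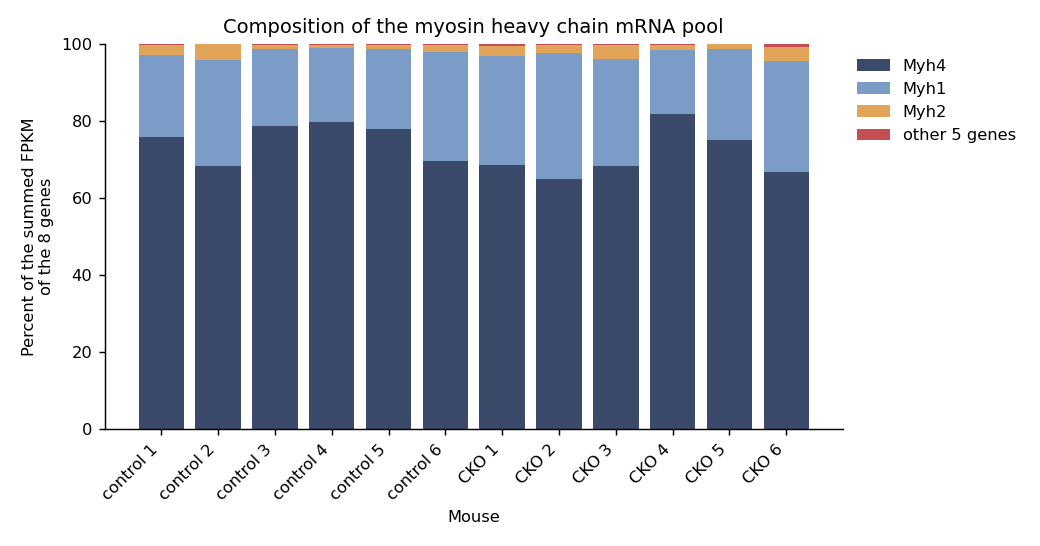
Stacked bars give the percent of the summed FPKM of the 8 genes supplied by Myh4, Myh1, Myh2 and the other 5 genes together in each mouse. Myh4 supplies between 64.9% and 81.8% in every mouse, and the other 5 genes together reach at most 0.890%, in CKO 6.

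Of the developmental isoforms, Myh3 passed the threshold and Myh8 did not. Myh3, the embryonic isoform, gave 0.551, 0.758 and 1.81 FPKM in controls and 1.30, 7.37 and 25.7 FPKM in CKOs. All CKOs but CKO 5 were above all controls, and CKO 5 was above 5 of the 6 controls but below control 1. The 3 highest values, 16.3, 11.97 and 25.7 FPKM, were those of CKO 1, 3 and 6, while CKO 2, 4 and 5 lay between 1.30 and 2.76 FPKM. Myh3 rose with a log2 fold change of 2.67 (SE 0.61, limma adjusted P = 0.0358). The call ended after scaling (log2 fold change 2.50, limma adjusted P = 0.0525), and it ended when any one of controls 2 to 6 or of CKO 1, 3 and 6 was left out, with adjusted P from 0.0668 to 0.0936. The share of Myh3 in the pool, which does not depend on the scaling, was 0.0213% ± 0.0114 in controls and 0.114% ± 0.106 in CKOs (SD, n = 6, exact permutation P = 0.0238). The difference was 0.0931 percentage points with all mice and 0.0582 without CKO 6 (exact permutation P = 0.0476).

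Myh8, the perinatal isoform, was more abundant than Myh3 in all controls. Controls gave 2.87, 5.08 and 8.07 FPKM and CKOs gave 3.81, 10.3 and 12.6 FPKM. CKO 1, 3, 4 and 6 were above all controls and CKO 2 and 5 were within the control range. It gave a log2 fold change of 0.74 (SE 0.30, limma adjusted P = 0.188), and 0.56 after scaling (limma adjusted P = 0.417). The share of Myh8 in the pool was 0.118% ± 0.035 in controls and 0.109% ± 0.028 in CKOs (SD, n = 6, exact permutation P = 0.671).

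Satellite cells, the muscle stem cells, were measured beside the developmental isoforms by 4 markers. Their summed FPKM ran from 2.04 to 3.79 in controls and from 3.26 to 5.24 in CKOs. Of the 4, 0 passed the limma adjusted threshold. At an unadjusted P below 0.05, 3 were higher, against 18.1% of all genes. Pax7, which defines these cells, was 0.228 ± 0.114 FPKM in controls and 0.401 ± 0.133 FPKM in CKOs (SD, n = 6), with 4 CKOs above all controls. The part of these cells in the Myh3 values was not tested. Markers of fibroblasts, tendon, endothelium, smooth muscle, adipocytes, Schwann cells, macrophages and red blood cells gave 0 genes at the adjusted threshold. At an unadjusted P below 0.05, 1 of 4 fibroblast, 2 of 3 adipocyte and 2 of 4 Schwann cell markers tested were higher. Of these markers, 0 were lower. The shares over all genes were 18.1% higher and 1.76% lower.

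Myh7, the slow isoform, varied most of the 8 genes within the CKO group. It gave 0.204, 0.437 and 2.25 FPKM in controls and 0.419, 5.16 and 37.5 FPKM in CKOs. CKO 1, 3, 4 and 6, at 16.5, 7.81, 2.51 and 37.5 FPKM, were above all controls, while CKO 2 and 5, at 0.438 and 0.419 FPKM, lay within the control range. The highest CKO was 89.4 times the lowest, against 11.04 times in controls. With this spread, a log2 fold change of 2.58 (SE 0.95) did not pass the threshold (limma adjusted P = 0.155), nor did 2.42 after scaling (limma adjusted P = 0.250). The share of Myh7 in the pool was 0.0179% ± 0.0171 in controls and 0.121% ± 0.161 in CKOs (SD, n = 6, exact permutation P = 0.108), and it reached 0.422% in CKO 6. The difference was 0.103 percentage points with all mice and 0.0429 without CKO 6.

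Myh6 gave 0.185, 0.412 and 0.512 FPKM in controls and 0.234, 1.04 and 2.93 FPKM in CKOs. CKO 1, 3 and 6 were above all controls and CKO 2, 4 and 5 lay within the control range. Its log2 fold change of 1.06 did not pass (SE 0.51, limma adjusted P = 0.262), nor did 0.90 after scaling (limma adjusted P = 0.465). Of 6 heart muscle markers, 5 fell below the filter, Nppb and Myl7 were listed at 0 in all 12 mice, Nppa was listed at 0 in 11, and the summed FPKM of the 6 ran from 0.0196 to 0.280 in controls and from 0.0280 to 0.472 in CKOs. The mouse with Nppa was CKO 6 (0.0946 FPKM), which had the highest Myh6 and Myh7. Tnni3 ran from 0 to 0.267 FPKM in controls and from 0 to 0.415 FPKM in CKOs. It was 0.0635, 0.345 and 0.190 FPKM in CKO 1, 3 and 6, and its highest value was in CKO 2, which was low for Myh6 and Myh7. Mybpc3 was listed at 0 in CKO 1, 3, 5 and 6. Ryr2 was 0.0093, 0 and 0.0093 FPKM in CKO 1, 3 and 6, against 0.0153, 0.0213 and 0.0280 FPKM in CKO 2, 4 and 5. The part of heart muscle in the Myh6 and Myh7 values was not tested.

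Myh7b was the least abundant member in controls, at 0.0905, 0.184 and 0.239 FPKM, and it gave 0.265, 0.437 and 0.708 FPKM in CKOs. All 6 CKOs were above all controls, also after scaling. Myh7b rose with a log2 fold change of 0.94 (SE 0.23, limma adjusted P = 0.0470), which uses a pseudocount of 0.1 and so understates a change at this level. The call ended after scaling (log2 fold change 0.80, limma adjusted P = 0.113) and with the replicate number as a block (limma adjusted P = 0.0662). It also ended when any one of controls 2 to 6 or of CKO 1, 3, 4 and 6 was left out, with adjusted P from 0.0568 to 0.120. Few fragments stand behind values of this size. Its share in the pool was 0.00404% ± 0.00120 in controls and 0.00539% ± 0.00115 in CKOs (SD, n = 6, exact permutation P = 0.0671).

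**Figure D3:**
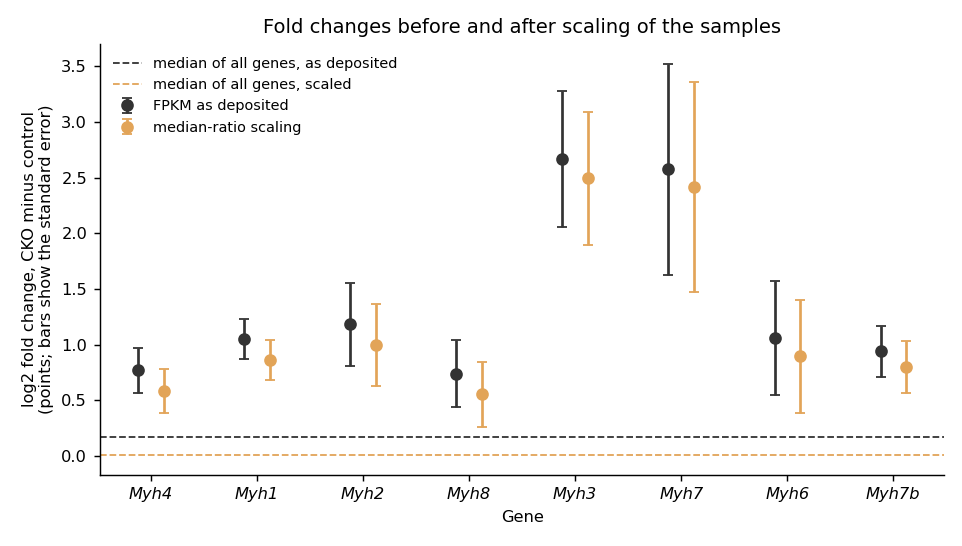
Log2 fold change of each gene, CKO minus control, with its standard error, from the FPKM as deposited (dark) and after median-ratio scaling (orange); dashed lines mark the median of the 12695 genes tested on each scale, 0.18 and 0.01. All 8 genes stay above the median of all genes on both scales, and Myh3 and Myh7 have the largest values with the widest errors.

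Myh6, Myh7 and Myh7b each carry a microRNA gene in an intron, and the mature sequences are given because these microRNAs are known to be made from the host transcripts. Capitals mark the seed, bases 2 to 8 (RefSeq, GRCm38.p6).
mmu-miR-208a-3p, within Myh6: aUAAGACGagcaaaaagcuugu
mmu-miR-208b-3p, within Myh7: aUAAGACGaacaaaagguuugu
mmu-miR-499-5p, within Myh7b: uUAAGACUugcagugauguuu
The miR-208 pair share a seed, and the seed of miR-499-5p differs from it only at its last base, base 8. The genes Mir208a, Mir208b and Mir499 were listed at 0 FPKM in all 12 mice, so the libraries gave no measure of whether these microRNAs followed their hosts.

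The CKO mice differed from one another in a way that several members shared. Among the 6 CKOs, CKO 3 was among the highest 3 for 8 of the 8 genes, CKO 1 for 7, CKO 6 for 6 and CKO 4 for 3, while CKO 2 and CKO 5 were among them for none. CKO 5 was the lowest for Myh1, Myh2, Myh3, Myh6, Myh7 and Myh8, and CKO 2 for Myh4 and Myh7b. CKO 4 combined the highest Myh4 of all mice, 7498 FPKM, with a Myh1 of 1532 FPKM that was the second lowest among CKOs. Within groups, over the 12 mice, Myh3 and Myh7 varied together most closely (Pearson r = 0.91, Spearman rho = 0.85 for deviations from the group means), whereas Myh4 and Myh2 did not (r = 0.06, rho = -0.07). The SD of the log2 values was larger in CKOs than in controls for each of the 8 genes, 2.57 against 1.21 for Myh7 and 1.74 against 0.54 for Myh3. Myh6 and Myh7 gave r = 0.83 (rho = 0.78), and the part of their shared sequence in this value was not tested.

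**Figure D4:**
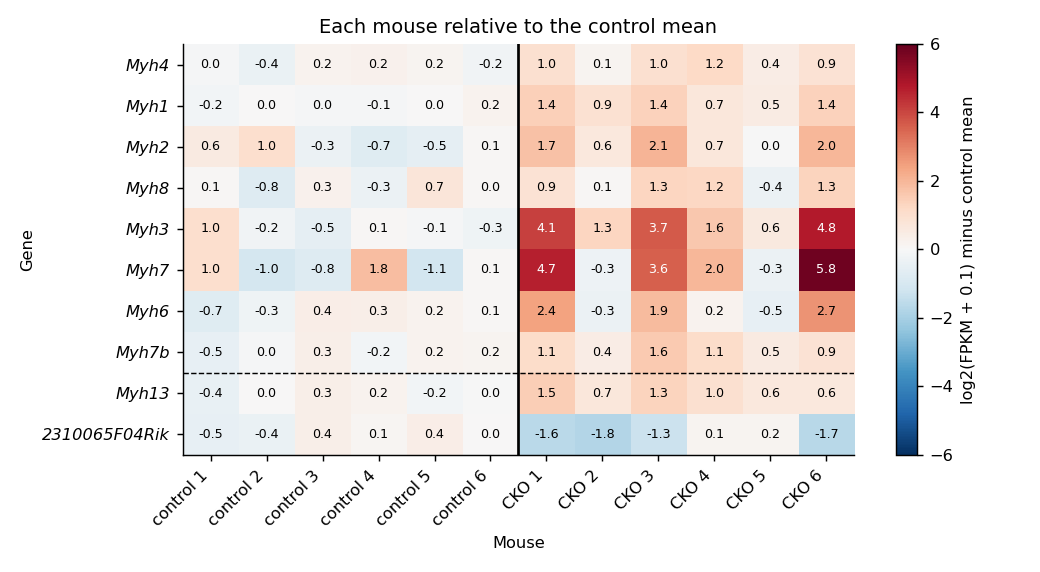
Log2(FPKM + 0.1) of each gene in each mouse minus the gene's control mean, with red above and blue below it; the 8 members are above the dashed line and 2 neighbors on chromosome 11 below it. CKO 1, 3 and 6 are the strongest red for Myh3, Myh7 and Myh6, and CKO 1, 2, 3 and 6 are blue for 2310065F04Rik.

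The neighbors Myh13 and 2310065F04Rik within the chromosome 11 cluster were examined after the positions of the members were known. Myh13 also belonged to the list of other myosin heavy chains, and 2310065F04Rik was named after its values were seen. Myh13, the next myosin gene after Myh8 (67321658 to 67371586), encodes the isoform of extraocular muscle. It gave 1.54, 2.12 and 2.69 FPKM in controls and 3.27, 3.84 and 6.10 FPKM in CKOs without overlap, and it rose with a log2 fold change of 0.95 (SE 0.18, limma adjusted P = 0.0128; 0.0539 after scaling). 2310065F04Rik, a long intergenic RNA on the minus strand between Myh3 and Myh2 (67112461 to 67120080), gave 10.2, 15.015 and 19.2 FPKM in controls and 4.11, 5.22 and 16.1 FPKM in CKOs. CKO 1, 2, 3 and 6, between 4.11 and 5.88 FPKM, were below all controls, and CKO 4 and 5, at 15.9 and 16.1 FPKM, lay within the control range. Its log2 fold change of -1.01 (SE 0.34) did not pass the threshold (limma adjusted P = 0.125), but did without CKO 5 (limma adjusted P = 0.0414).

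Myosin heavy chains that work outside the sarcomere did not pass the threshold. Myh9 and Myh10, which serve non-muscle cells, gave log2 fold changes of 0.15 (limma adjusted P = 0.567) and 0.63 (limma adjusted P = 0.193). Myh14, also a non-muscle form, gave 0.69 (limma adjusted P = 0.0937), and Myh11, the smooth muscle form, gave 0.04 (limma adjusted P = 0.866). After scaling, these became -0.04 for Myh9, 0.46 for Myh10, 0.51 for Myh14 and -0.14 for Myh11, so the sign turned for Myh9 and Myh11. Of the 5 genes of this list that were tested, Myh13 included, 1 was higher and 0 were lower at the adjusted threshold. The shares over all genes were 2.02% and 0.268%. The median log2 fold change of the 5 was 0.63.

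No light chain, the subunits that bind the neck of the heavy chain, passed the threshold. Of 8 tested, 0 passed the limma adjusted threshold, and the median log2 fold change was 0.06, against 0.18 over all genes. At an unadjusted P below 0.05, 2 were higher and 0 lower, against 18.1% and 1.76% of all genes. Myl2, the slow and ventricular regulatory light chain, gave 4.19, 18.99 and 102 FPKM in CKOs against 1.04, 3.71 and 11.6 FPKM in controls (log2 fold change 2.06, limma adjusted P = 0.161; 1.87 after scaling). Its 3 highest values were in CKO 1, 3 and 6. Myl4, the embryonic and atrial light chain, gave a log2 fold change of 1.13 (limma adjusted P = 0.149), and Myl3, the slow essential light chain, gave -0.52 (limma adjusted P = 0.330), which became 0.95 and -0.70 after scaling.

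The 3 CKO mice with the most Myh7 were also the highest for most other slow fiber genes. Of 10 slow fiber genes, 1 was higher at the limma adjusted threshold, against 2.02% of all genes. At an unadjusted P below 0.05, 7 were higher and 0 lower, against 18.1% and 1.76% of all genes. The median log2 fold change of the 10 was 1.04 (0.85 after scaling). Myom3, which encodes an M-line protein of slow and intermediate fibers, rose from 1.41 ± 0.76 to 6.13 ± 4.53 FPKM (SD, n = 6; log2 fold change 1.81, limma adjusted P = 0.0480), a call that ended after scaling (limma adjusted P = 0.0812) and without any one of controls 2 to 6 or of CKO 1, 3 and 6 (limma adjusted P from 0.0742 to 0.124). CKO 6 was the highest CKO for 10 of the 10 slow fiber genes, and CKO 1, 3 and 6 were the highest 3 for 7 of them. None of 10 fast fiber genes had these 3 CKOs highest. The same 3 CKOs were highest for 5 of the 8 myosin heavy chain genes, the fast isoforms Myh1 and Myh2 among them. Tnnt1, the slow troponin T, had 2.17 to 6.50 FPKM in CKO 2, 4 and 5, within the control range of 1.74 to 6.61 FPKM, and 22.3, 16.2 and 62.4 FPKM in CKO 1, 3 and 6.

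**Figure D5:**
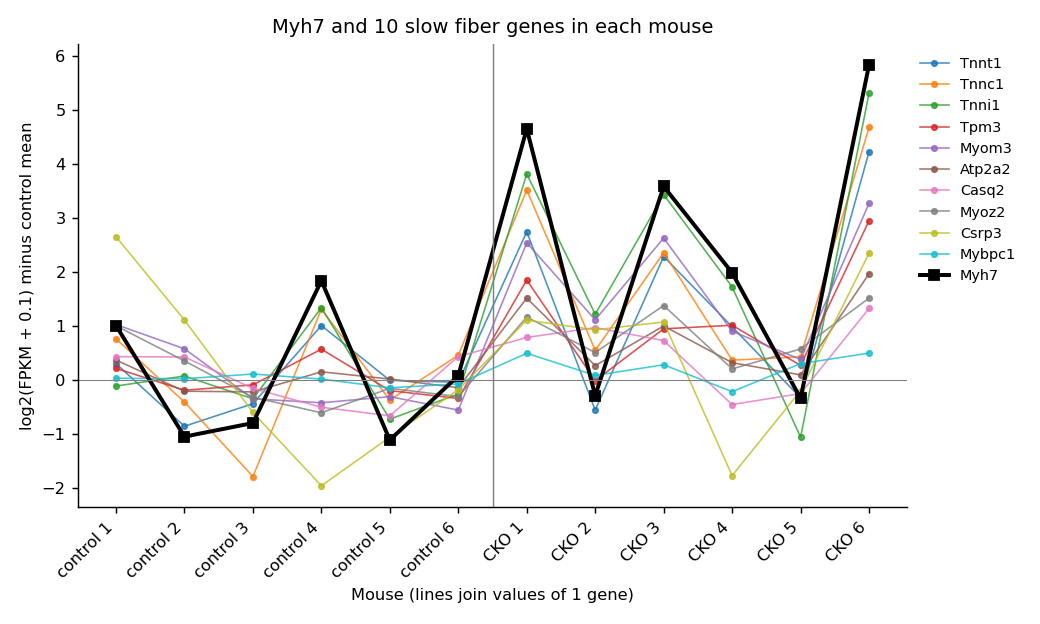
Log2(FPKM + 0.1) of Myh7 (black squares) and 10 slow fiber genes (colored points) in each mouse, minus the control mean of the gene; lines join the values of 1 gene and the vertical line divides controls from CKOs. The peaks of Myh7 at CKO 1, 3 and 6 coincide with peaks of Tnnt1, Tnnc1, Tnni1 and Myom3.

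No fast fiber gene of the list passed the threshold. Of 10 tested, 0 passed the limma adjusted threshold, and the median log2 fold change was -0.28. At an unadjusted P below 0.05, 1 was higher and 0 lower, against 18.1% and 1.76% of all genes. After scaling, 1 was higher and 6 were lower at the unadjusted threshold, against 845 and 941 of all 12695 genes. Mybpc2, the fast myosin-binding protein C, was the higher one, at 386 ± 66 FPKM in controls and 551 ± 72 FPKM in CKOs (SD, n = 6; log2 fold change 0.52, limma adjusted P = 0.0623). Tnnc2 and Tnnt3, the fast troponins C and T, gave log2 fold changes of -0.36 (limma adjusted P = 0.263) and -0.34 (limma adjusted P = 0.254), which became -0.55 and -0.53 after scaling.

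Of 8 thick filament partners tested, 2 rose and 0 fell at the adjusted threshold, against 2.02% and 0.268% of all genes. Besides Myom3, this was Mybph, which encodes myosin-binding protein H. Its CKO values, between 21.3 and 43.7 FPKM, were all above the control values, between 5.03 and 17.0 FPKM (log2 fold change 1.83, limma adjusted P = 0.00251; 0.00201 after scaling). Of 9 embryonic and neonatal muscle genes tested, Mybph and Sln (2 genes) rose and 0 fell at the adjusted threshold, against 2.02% and 0.268% of all genes. Sln, which encodes sarcolipin, an inhibitor of the calcium pump, gave 0.328, 0.678 and 5.69 FPKM in controls and 1.81, 16.0 and 59.9 FPKM in CKOs (log2 fold change 3.95, limma adjusted P = 0.0173; 0.0236 after scaling). Without CKO 1, its adjusted P was 0.0501.

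Among 13 genes listed for myosin folding and turnover, 0 rose and 1 fell at the adjusted threshold, against 2.02% and 0.268% of all genes. The list holds the methyltransferases Smyd1, Smyd2 and Smyd3 beside chaperones and ubiquitin ligases. Only Smyd2 passed, and no chaperone or ubiquitin ligase did. Smyd2, a methyltransferase related to Smyd1, fell from 62.1 ± 7.9 to 24.1 ± 5.8 FPKM (SD, n = 6; log2 fold change -1.38, limma adjusted P = 0.000289; -1.57 after scaling) with all CKOs below all controls. The median log2 fold change of the 13 genes was -0.02. Against 2.02% and 0.268% of all genes, 1 of 24 regulators of myosin isoform genes rose and 0 fell at the adjusted threshold. It was Tead4, a TEAD factor, with 0.199 ± 0.074 FPKM in controls and 0.607 ± 0.266 FPKM in CKOs (SD, n = 6; log2 fold change 1.19, limma adjusted P = 0.0332; 0.0778 after scaling). The Tead4 call also ended without any one of controls 3, 4 and 5 or of CKO 1, 3, 4 and 6 (limma adjusted P from 0.0567 to 0.0938). At an unadjusted P below 0.05, 8 of the 24 were higher and 1 was lower, against 18.1% and 1.76% of all genes. After scaling these became 5 and 4, against 845 and 941 of all 12695 genes.

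The genes whose variation within groups was most like that of each member were taken from the 12695 genes tested, by Pearson r over the 12 mice after the group means were subtracted. They are given as a description, without a test. For Myh7 the closest was Tnnt1 (r = 0.97, rho = 0.92), followed by Fras1 (r = 0.94) and Ctgf (r = 0.92). For Myh3 it was Atp2a2, the slow calcium pump (r = 0.97, rho = 0.99), followed by Tigd4 (r = 0.95) and Ablim1 (r = 0.94). For Myh2 the list held Gstp1 (r = 0.93), 8430429K09Rik (r = 0.92) and Myom3 (r = 0.91). For Myh1 it held Fzd10 (r = 0.95), Kcnn3 (r = 0.93) and Srrm4os (r = 0.92), all at group means of 1.11 FPKM or less. For Myh4 it held Kif3c (r = 0.90), Txlnb and Pcnt (both r = 0.90). The closest genes to Myh6, Myh7b and Myh8 were Zdbf2 (r = 0.94), Paqr3 (r = 0.88) and Gm14326 (r = 0.94). With 12 mice and so many genes, values of this size are the extreme of a long list.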

How the data were processed

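RNA-seq values came from 1 library per mouse (6 controls, 6 CKOs). The authors depleted ribosomal RNA, trimmed adapters, aligned reads to mm9 with TopHat2 2.0.10 and bowtie2 (at most 2 mismatches, multi-mapping reads discarded), and deposited FPKM per gene symbol from Cufflinks 2.1.1 (versions and build from the submitters' processing notes). The annotation and read length are not given in the sources used here. Of 23950 rows, 27 with a date for a symbol were left out. The depth in reads is unknown, so no counting intervals are given.

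Groups were compared with limma 3.58.1 (R 4.3.3, intensity trend, no block, two-sided) on log2(FPKM + 0.1) for genes with at least 0.1 FPKM in 6 samples, with Benjamini-Hochberg adjustment over all genes tested, since the authors' count test (DESeq) could not be run on FPKM. The code was tested on simulated data. Shares were compared by exact permutation tests. The members and gene lists were chosen with earlier results of these data known. Named are the 8 members, Smyd1 and the 3 genes most like each member. Also named are genes of each list past the adjusted threshold (otherwise the 3 with the smallest P). A few more were chosen after their values were seen (2310065F04Rik, Myh9, Myh10, Myh11, Myh14, Tnnt1, Acta1, Ckm, Mb, Des, Neb, Pygm, Pax7). P-values measure the spread between these mice. Alternatives were other pseudocounts, filters, scalings, weights, a replicate block and each mouse left out.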

Additional observations from a re-analysis of the deposited data

Results flagged for a closer look

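Of 62 groups of 6 mice examined for a mouse far from the rest (a gap to the nearest mouse above 0.625 of the group's range), 6 held one, and chance gives about 1 in 20. Control 1 was high for Myh3 (1.81 FPKM, the other controls 0.551 to 0.883), for the Myh3 share of the pool (0.0439%, the others 0.0116% to 0.0197%) and for Sln (5.69 FPKM, the others 0.328 to 1.12). CKO 3 was high for the Myh7b share (0.00766%, the other CKOs 0.00446% to 0.00524%). Control 3 was low for Myl3 (9.96 FPKM, the other controls 22.1 to 26.6). CKO 5 was high for Smyd2 (35.1 FPKM, the other CKOs 19.6 to 25.4), although it remained below all controls.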

How the results depend on the processing

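Of 546 repeated results, 443 stayed the same. For a tested result this means the same direction and the same side of the threshold. For counts of genes and for the summed FPKM ratio, it means a value near the main one. Myh1 passed in all 21 alternative fits. The log2 fold change of Myh3 missed the threshold with a pseudocount of 1 (1.99), no filter (2.67), median-ratio scaling (2.50), quantile normalization (2.50) and no intensity trend (2.67). That of Myh7b missed it with a pseudocount of 1 (0.29), no filter (0.94), median-ratio scaling (0.80), quantile normalization (0.73), values divided by each sample's sum (1.23) and the replicate block (0.94). Myh4 passed with a pseudocount of 1 (0.77), a filter at 1 FPKM (0.77), values divided by the sum (0.75) and sample weights (0.82), and Myh2 (1.54) and Myh7 (3.23) passed with sample weights. The filter at 1 FPKM left no value for Myh6 and Myh7b. The causes were not tested.

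Over all genes, 257 were higher and 34 lower at the adjusted threshold. The higher count became 170 with no filter, 97 with median-ratio scaling, 101 with quantile normalization and 1400 with sample weights, and the lower count became 90, 68 and 115 in the last 3. At the unadjusted threshold, 2300 higher and 224 lower became 845 and 941 with median-ratio scaling and 810 and 837 with quantile normalization, and the higher count became 3704 with sample weights.

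With each mouse left out in turn, the adjusted counts ran from 84 (without CKO 1) to 1067 (without control 1) higher and from 18 to 69 lower (without the same mice), and the log2 fold changes from 2.25 to 3.09 for Myh3, 0.81 to 1.04 for Myh7b, 0.68 to 0.89 for Myh4 and 1.01 to 1.43 for Myh2. The share differences ran from 2.28 to 5.51 percentage points for Myh1, -6.31 to -2.94 for Myh4, 0.15 (without control 4) to 0.791 (without control 2) for Myh2, 0.0582 to 0.111 for Myh3, 0.0429 to 0.126 for Myh7, 0.00264 to 0.00844 for Myh6 and 0.000901 to 0.00157 for Myh7b, whose share passed without control 3, control 6 or CKO 6. The lowest values for Myh3, Myh7 and Myh6 were those without CKO 6. The Myh8 share difference of -0.00864 ran from -0.0164 and turned to 0.00236 without control 5 and 0.000122 without CKO 5.

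Over all genes, same-numbered mice were little alike (correlation of deviations -0.086 to 0.164 over 6 pairs, and 2 of 6 controls most like their own number). Whether they were paired is not settled by this. The replicate block lowered the SE of Myh7 from 0.95 to 0.67, of Myh3 from 0.61 to 0.50 and of Myh2 from 0.37 to 0.29, and raised that of Myh7b from 0.231 to 0.238. Paired exact permutation gave P = 0.0625 for the Myh4 share and 0.0938 for the Myh1 share. The replicate block gave 272 genes higher, ended the calls of Myh7b and Tead4 (adjusted P = 0.0606), brought 2310065F04Rik past the threshold (adjusted P = 0.0473) and changed no other call of the genes repeated. For genes outside the family, the repeats were chosen after the data were seen: Mybph and Smyd2 passed in all 21 alternatives, Myh13 in 19, Sln in 20, Myom3 in 8 and Tead4 in 9 of the 20 that kept it. Few fragments limit Myh7b and Myh6, and close relatives limit all members except Myh7b.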
